A study of Mus musculus with 141 samples.

Results

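The proteasome is the large protease that degrades ubiquitin-tagged proteins in the cytosol and nucleus. Its genes were described here as every gene of the files whose symbol begins with Psm, a letter from a to g and a digit, leaving out Psmb8, Psmb9 and Psmb10, which encode the interferon-inducible catalytic subunits. The rule found 47 of 24423 genes. By role they were 8 genes of the alpha ring, 8 of the beta ring, 6 ATPases, 11 non-ATPase subunits of the regulatory particle, 7 assembly chaperones, 6 activators and inhibitors, and Psmc3ip. Psmc3ip encodes Hop2, a protein of meiotic recombination, and meets the rule by its name only. Psme2b, counted with the activators, is a copy of Psme2 that GENCODE vM1 names Psme2b-ps, a name for a pseudogene. Whether it yields protein was not tested.

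Gene expression was measured by RNA-seq in whole liver, lung and kidney from 1 male mouse of each of 47 Collaborative Cross (CC) strains, recombinant inbred lines descended from several founder strains. All mice were 8 to 12 weeks old and had been held in chambers with filtered air for 6 hours a day over 2 weeks. No group was treated otherwise, and tissue and strain are the factors that the labels give. The study's methods name sequencing batches, which the labels do not give, so their part in the results was not tested. With 1 mouse per strain, a difference between strains cannot be told apart from one between mice, and the levels of a whole tissue cannot tell fewer cells of a type from less RNA per cell.

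In the assembled complex, outer alpha rings gate a chamber formed by inner beta rings, and the Psmb5, Psmb6 and Psmb7 products carry the proteolytic sites. The regulatory particle binds ubiquitin chains, removes them, and unfolds the substrate with its ATPase ring. Dedicated chaperones put both parts together. The PA28 and PA200 activators open the alpha ring without ATP. The subunits are assembled in set proportions, and their genes are known to respond together to NFE2L1 through antioxidant response elements. Interferon induces the PA28 alpha and beta subunits along with Psmb8, Psmb9 and Psmb10, whose products replace the standard catalytic subunits and favour peptides for antigen presentation.

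The libraries, 47 per tissue, held 1738046 to 42158454 counts, with medians of 10423382 in liver, 9338124 in lung and 8245850 in kidney. Markers of the 3 tissues matched the labels: median Alb was 57374 TPM in liver, against 89.7 in lung and 53.8 in kidney, and the summed lung epithelium and kidney tubule markers were each lower in every library of the other tissues. S100a9 was listed at 0 in all liver and kidney libraries and Hba-a1 in all libraries. Muscle markers (Actc1, Myh6 and Myh11) summed to 55.3 to 797 TPM in lung and to at most 27.1 in liver and 1.24 in kidney. The precursor ribosomal RNA Rn45s took from 0.0521% to 58.4% of the TPM of a library. No pair of libraries held identical values.

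Promoter windows (250 bases before to 50 after the transcription start, RefSeq, GRCm38.p6) were found for 39 of the 47 genes, in 42 windows. The core of the antioxidant response element, TGACNNNGC on either strand, was present for 6 of the 39 genes (15.4%), against 12.4% of 32851 windows of the genome. These 6 stretches are shown because they hold the motif known for this gene family, with its letters in capitals.
Psmb5 (chr14:54618023-54618052, minus strand): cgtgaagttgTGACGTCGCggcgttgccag
Psmb6 (chr11:70525338-70525367, plus strand): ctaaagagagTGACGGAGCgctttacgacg
Psmc6 (chr14:45329587-45329616, plus strand): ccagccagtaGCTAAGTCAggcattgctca
Psmd12 (chr11:107479278-107479307, plus strand): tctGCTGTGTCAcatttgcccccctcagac
Psmd9 (chr5:123228149-123228178, plus strand): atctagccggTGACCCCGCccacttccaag
Psme4 (chr11:30771758-30771787, plus strand): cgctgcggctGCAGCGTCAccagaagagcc

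The interferon-stimulated response element, searched as GAAA, any 2 bases and GAAA on either strand was present for 5 of the 39 genes (12.8%), against 3.44% of all windows, and is shown because interferon-inducible relatives were compared with these genes. It was present in none of the windows of the 3 genes Psmb8, Psmb9 and Psmb10. For Psme1 and Psmg4 the match begins after the transcription start.
Psmb3 (chr11:97703261-97703290, plus strand): cacagtgactTTTCACTTTCcgctttccat
Psmd4 (chr3:95042675-95042704, minus strand): ataaccaaccTTTCCATTTCtgtggcgcct
Psmd9 (chr5:123228021-123228050, plus strand): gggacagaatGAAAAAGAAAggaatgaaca
Psme1 (chr14:55578493-55578522, plus strand): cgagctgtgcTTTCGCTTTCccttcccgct
Psmg4 (chr13:34162969-34162998, plus strand): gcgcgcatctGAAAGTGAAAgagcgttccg
A CCAAT box was present for 14 of the 39 genes (35.9%), against 37.4% of all windows, and the GC box for 22 (56.4%), against 35.7%. A match is a run of letters and was not tested as a binding site. The 250 bases before the start of Psmb5 (chr14:54617996-54618245, minus strand) are given in full because Psmb5 had the most uneven share among subunits over the tissues.
Psmb5: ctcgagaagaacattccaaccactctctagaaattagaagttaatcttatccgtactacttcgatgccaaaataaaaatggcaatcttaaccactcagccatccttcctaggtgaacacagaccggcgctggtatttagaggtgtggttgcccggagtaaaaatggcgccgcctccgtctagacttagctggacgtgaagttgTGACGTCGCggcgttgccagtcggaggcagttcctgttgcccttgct

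The subunits of both rings and of the regulatory particle were abundant in all tissues when compared per transcript length, as TPM. In the beta ring, Psmb1 (a structural subunit) had a lowest, median and highest TPM of 64.0, 234 and 363 in liver, 36.6, 228 and 344 in lung and 104, 273 and 449 in kidney. Psmb7, the trypsin-like subunit, was the highest beta subunit in kidney, with 107, 320.1 and 526. Psmb5, the chymotrypsin-like subunit, was lowest among the 7 general beta subunits in liver (24.2, 115 and 193) and in lung (12.1, 104 and 136). In kidney the lowest was Psmb2, with 60.5, 144 and 225. The ranges of these neighbours overlapped across mice. Of the 50-base windows of Psmb5, 60.3% also occur elsewhere in NCBIM37, as do 63.5% of those of Psmb3, against 0% to 12.8% for the other 5, and only reads that align once were counted. The part of this in the order was not tested.

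In the alpha ring, median TPM was highest for Psma4 in liver (208) and kidney (339) and for Psma2 in lung (211). Among the ATPases, which unfold the substrate, medians ran from 75.9 (Psmc5) to 124 (Psmc1) in liver, from 89.4 (Psmc4) to 151 (Psmc1) in lung, and from 119 (Psmc2) to 199 (Psmc3) in kidney. Psmd8 was the highest non-ATPase subunit in every tissue, with medians of 141.35 in liver, 123 in lung and 189 in kidney.

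The forms known from single organs were close to absent. Psma8, the testis form of an alpha subunit, had median TPM of 1.63 in liver, 0.810 in lung and 0.610 in kidney, and 11, 22 and 26 of the 47 libraries had at most 3 counts. Psmb11, the thymus form of Psmb5, had medians of 0.05 in liver, 0.230 in lung and 0.0900 in kidney, with at most 3 counts in 42, 28 and 42 libraries. Psmb11 lies beside Psmb5 in the genome (chr14:55244147-55248393 and chr14:55232644-55236851, NCBIM37, the build of the files).

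The number of transcript models of a gene in the deposited tables went with its level. The 5 general subunits with more than 1 model (Psma3, Psma6, Psma7, Psmd2 and Psmd4) had median TPM of 2.71 to 8.64 in liver, 2.92 to 9.20 in lung and 3.43 to 10.2 in kidney. The 26 subunits with 1 model had 56.4 to 234, 74.8 to 228 and 86.9 to 339, so the ranges did not overlap. Across all tested genes the medians were 7.44, 23.1 and 15.04 TPM for the 10157 genes with 1 model and 1.07, 2.94 and 2.04 for the 1970 genes with more. Reads were kept only where they aligned once, and the part of this step in the low values was not tested. The levels of these 5 genes, and of Psmd10, Psmg4, Psme2 and Psmf1, which also have more than 1 model, are therefore not set against those of other genes.

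Among genes with 1 transcript model, the assembly chaperones of the naming rule were lower than the subunits they join. This did not hold for Pomp, a beta-ring chaperone outside the rule. Its median TPM (liver 218, lung 175, kidney 189) lay within the range of the general beta subunits. Median TPM came to 29.8 in liver, 18.5 in lung and 44.5 in kidney for Psmg1, 21.8 in liver, 27.2 in lung and 32.8 in kidney for Psmg2 and 20.1 in liver, 17.5 in lung and 18.5 in kidney for Psmg3, which pair up to build the alpha ring. Psmd5, a chaperone of the ATPase ring, had 30.8 in liver, 52.8 in lung and 64.0 in kidney. Among the activators, Psme1 (PA28 alpha) had a lowest, median and highest TPM of 37.3, 142 and 221 in liver, 43.3, 225 and 421 in lung and 43.1, 99.7 and 258 in kidney. Psme3 (PA28 gamma, the nuclear form) had medians of 28.6 in liver, 51.4 in lung and 54.3 in kidney, and Psme4 (PA200) 78.5 in liver, 78.2 in lung and 156 in kidney.

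Psme2, the beta partner of Psme1, was listed at a median of 0 in all 3 tissues, with at most 3 counts in 47, 44 and 45 libraries. Psme2 (chr14:56206278-56209950) lies next to Psme1 (chr14:56196960-56200366). Of its 50-base windows, 59.3% were found again at Psme2b (chr11:48758856-48759692), a copy of Psme2 at another locus, so reads of these windows do not align once. Psme2 also has 2 transcript models. The part of either in its low values was not tested. Psme2 and Psmb11 did not pass the filter on low counts, which left 45 of the 47 genes for the tissue tests.

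**Figure D1:**
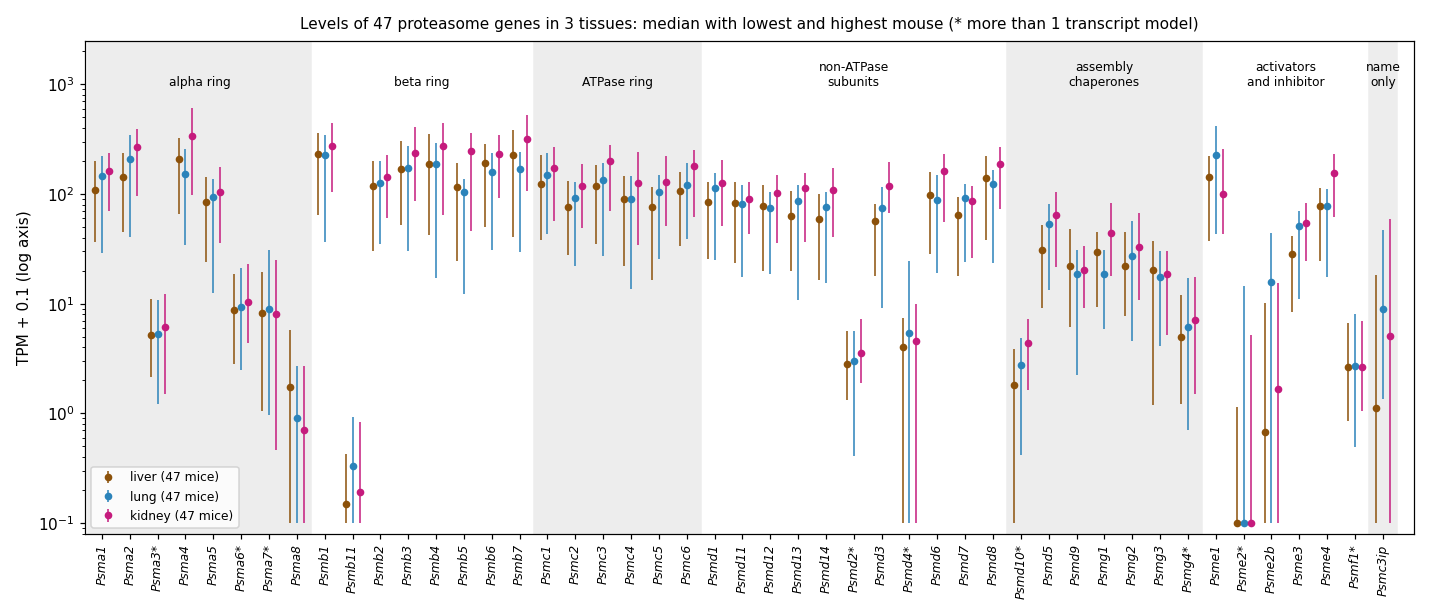
Levels of the 47 genes as TPM + 0.1 on a log axis, in liver (brown), lung (blue) and kidney (magenta). Points are medians and bars reach from the lowest to the highest of 47 mice, and an asterisk marks genes with more than 1 transcript model. In the alpha ring and among the non-ATPase subunits, the medians of these genes lie below those of the other general subunits.

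Summed over the 47 genes, the lowest, median and highest library had 987, 3672 and 5248 TPM in liver, 773, 4002 and 5389 in lung, and 1984, 5262 and 7616 in kidney. At the median the genes thus held 0.367%, 0.400% and 0.526% of the transcripts. The liver library with the lowest sum, of strain CC033, had 52.2% of its TPM in Rn45s, and the lung library with the lowest sum, of CC015, had 58.4%. The highest sums, in CC002 and CC057, stood beside 3.41% and 0.291%. After TMM scaling (trimmed mean of M-values) of the libraries of a tissue, the highest library exceeded the lowest by 1.47-fold in liver, 1.38-fold in lung and 1.58-fold in kidney, against 5.32-, 6.97- and 3.84-fold unscaled. Comparisons over strains therefore used TMM-normalized values.

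To ask whether the genes of the complex differed between tissues, all 12127 genes past the filter were fitted with limma-voom on TMM-scaled counts, with strain as a block. A gene was called at a Benjamini-Hochberg adjusted p of 0.1 or less and an absolute log2 fold change of 1 or more. In liver against lung, 39 of the 45 tested proteasome genes were called higher in liver and 1 lower, with a median log2 fold change of 1.36. Of all genes, 55% were called, 23.9% as higher in liver and 31% as higher in lung, with a median of -0.06. In liver against kidney 4 genes were called higher in liver and 1 lower (median 0.48), where 36.4% of all genes were called, 15.6% as higher in liver and 20.8% as higher in kidney. In lung against kidney 17 genes were called lower in lung and 1 higher (median -0.90), where 46.1% of all genes were called, 25.5% as higher in lung and 20.6% as higher in kidney.

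The directions depended on the scaling, and hold relative to the median gene. Scaled by total counts, the median log2 fold change of all genes became -1.44, -0.95 and 0.46 in liver against lung, liver against kidney and lung against kidney, and that of the proteasome genes 0.02, -0.47 and -0.48. The 20 most abundant genes held 58.6% of a liver library at the median, 34.6% of a lung library and 43.1% of a kidney library. With total counts, 0 of the 45 genes were called higher and 2 lower in liver than in lung. Of all 12127 genes, 1186 were called higher and 7474 lower. Under each scaling (TMM, DESeq2 size factors, total counts and TPM with a pseudocount of 1 or 0.1), 43 of the 45 genes lay above the median gene in liver against lung. In lung against kidney only 2 did so, Psme1 and Psme2b, under TMM. The fold changes given next are on the TMM scale.

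In liver against lung all 8 alpha, 7 beta, 6 ATPase and 11 non-ATPase genes that were tested were called higher in liver. Psmb7 had TMM-scaled CPM of 73.1, 126 and 189.8 (lowest, median and highest) in liver, 22.4, 31.1 and 41.1 in lung and 59.1, 89.8 and 132 in kidney. Its liver mice all lay above the lung mice, and its difference was 2.01 ± 0.04 (SE, adjusted p = 3.67e-72), the largest of the beta ring. The smallest there was that of Psmb2, a structural subunit, at 1.42 ± 0.04. In the alpha ring the values ran from 1.03 ± 0.04 for Psma2 to 2.19 ± 0.14 for the testis form Psma8, whose counts were near the detection limit. The ATPases spanned 1.12 ± 0.04 (Psmc5) to 1.54 ± 0.04 (Psmc4), and the non-ATPase subunits 1.04 ± 0.04 (Psmd7) to 1.77 ± 0.04 (Psmd8). Of the genes named here, Psma2, Psmb2, Psmc5 and Psmd7 turned below 0 under TPM, as did Psma2, Psmc5 and Psmd7 under total counts.

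Of the chaperones, 5 of 7 were called higher in liver than in lung. Psmg1 had CPM of 11.8, 16.8 and 23.3 in liver, 2.04, 3.64 and 5.98 in lung and 6.35, 13.9 and 26.5 in kidney. Lung was below both other tissues with no overlap. The difference was 2.21 ± 0.05 (SE, adjusted p = 1.21e-61) in liver against lung and -1.88 ± 0.05 (SE, adjusted p = 4.27e-55) in lung against kidney. Psmd5, at 0.79 ± 0.04, and Psmd10, at 0.87 ± 0.09, fell short of the fold required. In liver against kidney Psmg3 was called higher in liver, by 1.15 ± 0.06 (SE) with an adjusted p of 8.73e-36, as was Psmd9, a chaperone of the ATPase ring, by 1.04 ± 0.06 (SE) with an adjusted p of 1.49e-30. Liver exceeded kidney in 46 of 47 mice for each. Psmd10 had the lowest value, -0.33 ± 0.09.

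Between liver and kidney the rings differed less than the fold required. None of the 7 beta, 6 ATPase or 11 non-ATPase genes was called, and values ran from -0.13 ± 0.05 (Psmb5) to 0.69 ± 0.04 (Psmb1), from 0.22 ± 0.04 (Psmc5) to 0.58 ± 0.04 (Psmc1), and from -0.16 ± 0.05 (Psmd3) to 0.89 ± 0.04 (Psmd11). Of the alpha genes Psma8 was called, at 2.04 ± 0.14 (SE, adjusted p = 8.9e-26), and Psma2 had the smallest value, 0.14 ± 0.04. Without a minimum fold, 37 genes passed the adjusted p as higher in liver and 4 as lower on the TMM scale. No share over all genes was taken at this threshold. Under total counts, 4 of the 45 log2 fold changes lay above 0 and 41 below.

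Lung was below kidney for most of the complex. In the beta ring 5 of 7 genes were called lower in lung, led by Psmb5, with CPM of 7.19, 16.3 and 22.7 in lung, 21.5, 62.3 and 85.7 in kidney and 37.3, 56.5 and 85.8 in liver. The difference between lung and kidney was -1.92 ± 0.05 (SE, adjusted p = 2.66e-61), in the same direction in all 47 mice, though the highest lung exceeded the lowest kidney. Psmb2 had the smallest, -0.73 ± 0.04. Called in the other groups were Psma4 alone of 8 alpha genes (-1.68 ± 0.04), 3 of 6 ATPases, of which Psmc4 had -1.11 ± 0.04 and the uncalled Psmc1 -0.75 ± 0.04, and 5 of 11 non-ATPase subunits, from -1.38 ± 0.04 for Psmd6. The uncalled Psmd7 had -0.51 ± 0.04. Psme4, the nuclear activator PA200, was called lower in lung than in kidney, at -1.55 ± 0.04, and than in liver, where the difference of liver against lung was 1.54 ± 0.04.

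**Figure D2:**
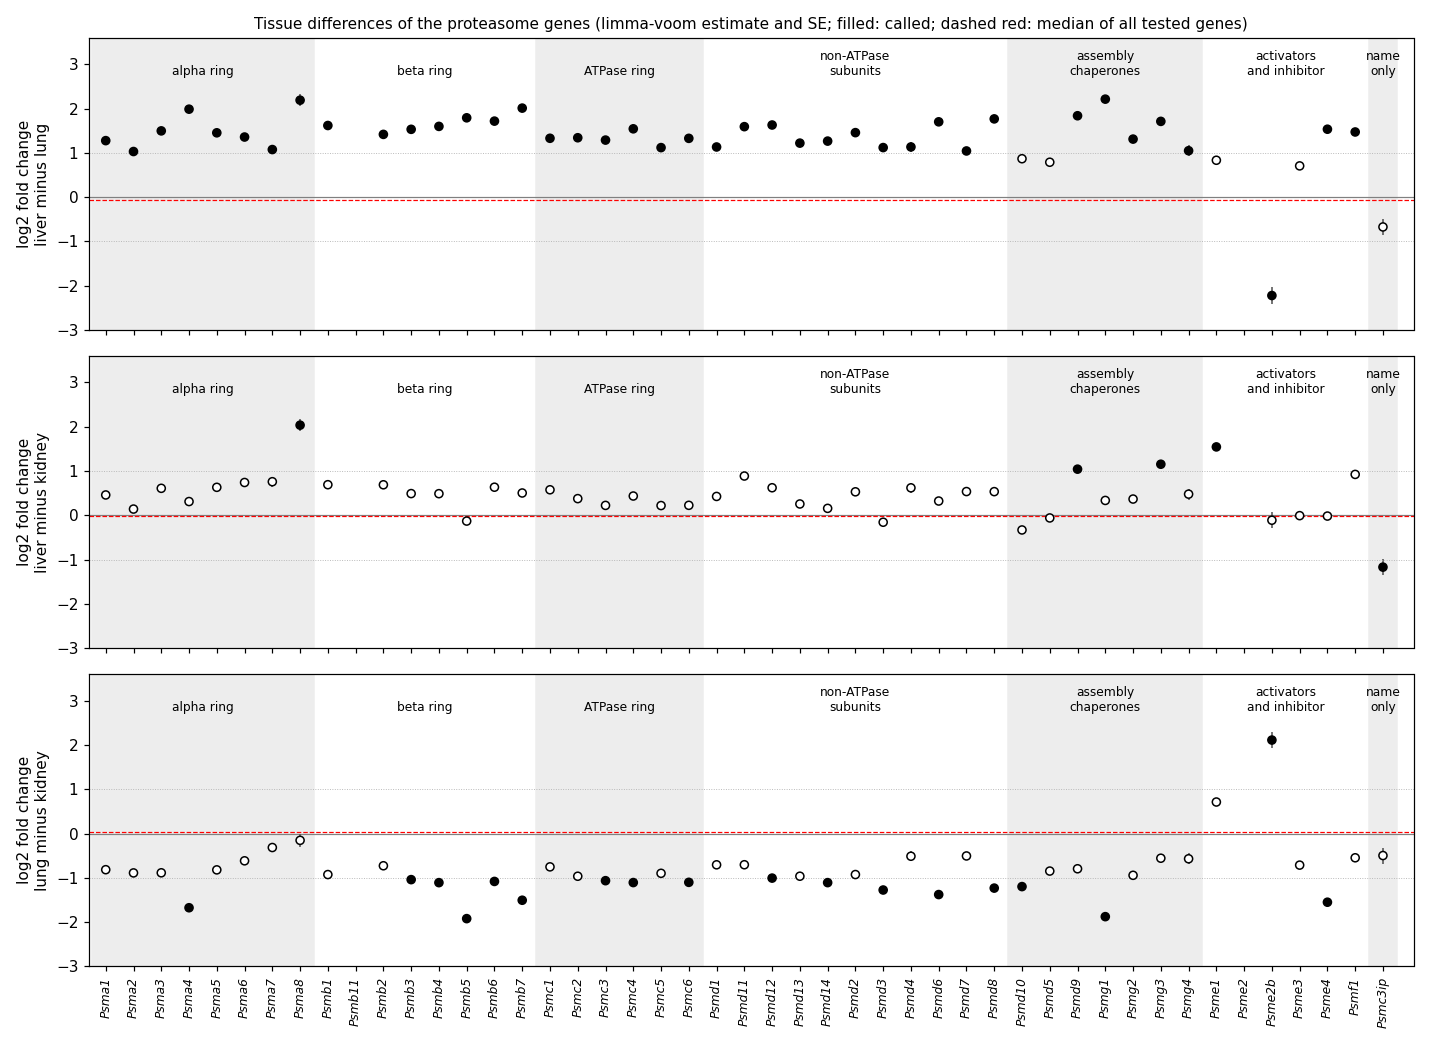
Log2 fold change of each of the 45 tested genes between 2 tissues, with its SE, from limma-voom on TMM-scaled counts. Filled points were called, dotted lines mark a log2 fold change of 1, and the dashed red line is the median of all tested genes, above which 43 of 45 points lie in liver against lung, a position relative to other genes that total counts and TPM kept while they moved the zero.

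Because each subunit's share of the complex's transcripts does not depend on the scaling of a library, the 26 general subunits with 1 transcript model were also expressed as a percentage of their summed TPM. Psmb5, singled out after the shares were seen, was the most uneven. Its share had a lowest, median and highest value of 2.79%, 3.62% and 4.56% in liver, 1.61%, 2.96% and 3.72% in lung, and 2.24%, 5.38% and 6.67% in kidney. Kidney exceeded lung in 47 of 47 mice and liver in 44. Psmd7, a scaffold for the deubiquitinase of the regulatory particle, had its highest share in lung, 2.86% at the median against 2.04% in liver and 1.89% in kidney, and lung exceeded each in 45 mice. Psma4 and Psmb7 had their lowest shares in lung, at 4.85% and 5.02%. By contrast Psmb4 held 5.88%, 5.75% and 5.88% in liver, lung and kidney.

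Only reads that align once enter these shares, and 60.3% of the 50-base windows of the Psmb5 transcript also occur elsewhere in NCBIM37. The corresponding values were 45.3% for Psma4, 12.8% for Psmb7 and 0% for Psmd7 and Psmb4.

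Psme1 was lowest in kidney on the TMM scale and in TPM, while its highest median was in liver on the first and in lung on the second. Its CPM had a lowest, median and highest value of 52.4, 80.2 and 177 in liver, 34.0, 44.6 and 77.7 in lung and 16.4, 27.6 and 102 in kidney. It was called higher in liver than in kidney, by 1.55 ± 0.05 (SE, adjusted p = 1.7e-54) in 47 of 47 mice. Lung exceeded kidney by 0.71 ± 0.05 in 46 of 47 mice, below the fold required, where Psme3 and Psme4 had the opposite sign (-0.71 ± 0.03 and -1.55 ± 0.04).

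The inducible catalytic genes, which the rule left out, were likewise lowest in kidney. Psmb8, Psmb9 and Psmb10 were called higher in liver than in kidney, by 2.38 ± 0.09, 2.68 ± 0.10 and 1.94 ± 0.07, and in lung than in kidney, by 2.12 ± 0.09, 2.27 ± 0.10 and 1.77 ± 0.07. Between liver and lung they differed by 0.26 ± 0.09, 0.41 ± 0.09 and 0.18 ± 0.07 and were not called. The ratio of each to the standard subunit it replaces, in TPM, was highest in lung. Psmb8 over Psmb5 had a median of 0.383 in liver, 1.01 in lung and 0.0589 in kidney, with lung above the other tissues in 47 of 47 mice. Psmb9 over Psmb6 had 0.154, 0.392 and 0.0353, and Psmb10 over Psmb7 0.142, 0.504 and 0.0521. Psmb8 exceeded Psmb5 in 25 of 47 lungs, and in 1 liver and 1 kidney, both from strain CC016. Of the 50-base windows of Psmb5, 60.3% also occur elsewhere in NCBIM37, against 0% for Psmb8, and only reads that align once were counted. The part of this step in the level of the ratio was not tested.

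Markers of leukocytes were highest in lung. Their sum was lowest in liver mainly through Cd74, as the medians of Ptprc, Cd79a and Cd3e were close in liver and kidney. In TPM without TMM, as used here, the median gene was also lower in liver than in kidney. The summed TPM of Ptprc, Cd79a, Cd3e and Cd74 had a lowest, median and highest value of 1.58, 9.17 and 164 in liver, 17.8, 182 and 383 in lung, and 4.18, 17.9 and 331 in kidney. Their part in the levels of Psme1 and the inducible genes was not tested.

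Psme2b, the copy of Psme2 with a pseudogene name, was the only tested gene of the naming rule called higher in lung than in both other tissues. Its TPM was 0, 0.570 and 10.03 in liver, 0, 15.8 and 43.8 in lung and 0, 1.58 and 15.2 in kidney. The log2 fold change was -2.22 ± 0.18 (SE, adjusted p = 1.17e-20) in liver against lung and 2.11 ± 0.18 (SE, adjusted p = 1.8e-19) in lung against kidney, while liver and kidney differed by -0.11 ± 0.19. At most 3 counts were seen in 30 liver, 7 lung and 17 kidney libraries, so these fitted values depend on the prior count. Reads of Psme2 and Psme2b that match both loci were not counted. Psmf1, the inhibitor PI31, had 1.47 ± 0.08 in liver against lung and 0.92 ± 0.08 in liver against kidney.

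Of 28 other genes of proteasome assembly, substrate delivery and regulation found in the files, 22 passed the filter. In liver against lung 11 were called higher in liver and none lower (median 0.997). In liver against kidney 3 were called higher in liver, namely Ddi2 (1.74 ± 0.05), the protease that activates NFE2L1, Pomp (1.24 ± 0.04), the maturation chaperone of the beta ring, and Rad23b (1.19 ± 0.03), a shuttle for ubiquitinated substrates. In lung against kidney Vcp (-1.03 ± 0.03), the unfoldase that prepares substrates, was called lower in lung. The transcription factor gene Nfe2l2 had 0.61 ± 0.04 in lung against kidney, and Nfe2l1 did not pass the filter. Nfe2l1 has 6 transcript models, and genes with more than 1 model had low values in these data. The part of this in its low level was not tested. Ddi2 and Rad23b did not overlap between liver and either other tissue. As for the members, total counts moved the median of the list to -0.37, -0.51 and -0.10.

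To ask which genes kept their order of strains across tissues, rank inverse normal values of TMM-normalized TPM were correlated over the 47 strains between tissues of the same mouse, with 100000 permutations and adjustment over all genes expressed in both tissues. The smallest p these can give is 1e-05. In liver and lung 4 of 42 proteasome genes were called at an adjusted p of 0.1 or less, where 13.5% of 8517 genes were called. In liver and kidney 8 of 42 were called (23.6% of 8483 genes), and in lung and kidney 7 of 44 (17.4% of 10057). The median r of the proteasome genes was 0.14, 0.17 and 0.16, and that of all genes 0.14, 0.18 and 0.15. All called r were positive. Of the other pathway genes 2, 5 and 4 of 22 were called.

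Psmc4, an ATPase of the base also called Rpt3 (chr7:28826726-28835120), had the highest r among the members in liver and lung, in liver and kidney, and in lung and kidney. Its TMM-normalized TPM had a lowest, median and highest value of 43.96, 88.1 and 122 in liver, 53.9, 87.1 and 117 in lung and 50.4, 138 and 184 in kidney. Strain CC024 was lowest or second lowest in each tissue, with 46.8, 54.5 and 50.4, and CC001 was among the 3 highest, with 122, 113 and 184. In liver and lung r was 0.73 (p = 1e-05, adjusted p = 0.000734), rho was 0.74 (p = 1e-05, adjusted p = 0.000716), and r was 0.69 without the 2 farthest strains. In liver and kidney r was 0.65 (p = 1e-05, adjusted p = 0.000451), rho was 0.63 (p = 1e-05, adjusted p = 0.000482), and r was 0.62 without the 2 farthest strains. In lung and kidney r was 0.70 (p = 1e-05, adjusted p = 0.000524), rho was 0.72 (p = 1e-05, adjusted p = 0.000505), and r was 0.66 without the 2 farthest strains. The levels formed a continuous range with no separate group of strains. On TPM without TMM, r was 0.31 in liver and lung (adjusted p = 0.517), so that this call was lost, 0.49 in liver and kidney and 0.44 in lung and kidney.

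Psmb4, a structural beta subunit, was the other gene called in all 3 pairs. In liver and lung r was 0.44 (p = 0.00164, adjusted p = 0.0247), rho was 0.43 (p = 0.00342, adjusted p = 0.0433), and r was 0.40 without the 2 farthest strains. In liver and kidney r was 0.51 (p = 0.00029, adjusted p = 0.00477), rho was 0.45 (p = 0.00171, adjusted p = 0.0186), and r was 0.46 without the 2 farthest strains. In lung and kidney r was 0.38 (p = 0.00805, adjusted p = 0.0596), rho was 0.35 (p = 0.0175, adjusted p = 0.104), and r was 0.40 without the 2 farthest strains. The last of these lost its call without the 11 strains that had a library under 4000000 counts (r = 0.13), and also given Rn45s (adjusted p = 0.106). On TPM without TMM, r was 0.14 in liver and lung (adjusted p = 0.875) and 0.25 in lung and kidney (adjusted p = 0.459), so that only the call in liver and kidney remained. CC023 and CC044 were among the 5 lowest strains in each tissue, CC044 with 126, 116 and 94.3 TMM-normalized TPM in liver, lung and kidney.

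Psmc5, another ATPase, and Psmf1, the inhibitor, were called in 2 pairs. For Psmc5 in liver and kidney r was 0.46 (p = 0.00099, adjusted p = 0.0111), rho was 0.47 (p = 0.00099, adjusted p = 0.0127), and r was 0.40 without the 2 farthest strains. In lung and kidney r was 0.52 (p = 0.00017, adjusted p = 0.00397), rho was 0.51 (p = 0.00038, adjusted p = 0.00706), and r was 0.50 without the 2 farthest strains. For Psmf1 in liver and lung r was 0.57 (p = 4e-05, adjusted p = 0.00197), rho was 0.48 (p = 0.00082, adjusted p = 0.0170), and r was 0.50 without the 2 farthest strains. In liver and kidney r was 0.44 (p = 0.00190, adjusted p = 0.0179), rho was 0.34 (p = 0.0214, adjusted p = 0.102), and r was 0.48 without the 2 farthest strains. On TPM without TMM both Psmc5 calls were lost (adjusted p = 0.127 in liver and kidney and 0.449 in lung and kidney), as was that of Psmf1 in liver and lung (adjusted p = 0.183). Without the strains of low depth, the call of Psmf1 in liver and kidney was lost (r = 0.33, adjusted p = 0.186). For Psmf1, CC036, CC044 and CC062 were among the 6 lowest strains in each tissue.

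The remaining calls were in 1 pair each. For the alpha subunit Psma1 in liver and kidney r was 0.54 (p = 0.00012, adjusted p = 0.00268), rho was 0.51 (p = 0.00022, adjusted p = 0.00425), and r was 0.55 without the 2 farthest strains. For Psma7, of the same ring, in liver and lung r was 0.36 (p = 0.0131, adjusted p = 0.0983), rho was 0.31 (p = 0.0357, adjusted p = 0.193), and r was 0.34 without the 2 farthest strains. For Psmb6, the caspase-like subunit, in lung and kidney r was 0.37 (p = 0.0102, adjusted p = 0.0697), rho was 0.40 (p = 0.00546, adjusted p = 0.0479), and r was 0.34 without the 2 farthest strains. For Psme3 in liver and kidney r was 0.36 (p = 0.0136, adjusted p = 0.0693), rho was 0.34 (p = 0.0203, adjusted p = 0.0982), and r was 0.35 without the 2 farthest strains. For Psme1 in liver and kidney r was 0.34 (p = 0.0210, adjusted p = 0.0924), rho was 0.31 (p = 0.0349, adjusted p = 0.139), and r was 0.21 without the 2 farthest strains, so that this relation rests on those strains. Each of these 5 calls was lost under some alternative. On TPM without TMM the adjusted p was 0.222 for Psma1, 0.862 for Psmb6 (r = 0.096), 0.317 for Psme3 and 0.200 for Psme1. Without the strains of low depth it was 0.209 for Psma7, 0.116 for Psme3 and 0.226 for Psme1. Given Rn45s it was 0.142 for Psma7. Without CC016 and CC040 it was 0.203 for Psma7 and 0.101 for Psmb6. At the low end no gene was called. The lowest r were those of Psma3 (-0.34), Psmd2 (-0.28) and Psme4 (-0.21) in liver and lung, Psmb1 (-0.18), Psmd2 (-0.14) and Psmc6 (-0.11) in liver and kidney, and Psmd11 (-0.29), Psme4 (-0.05) and Psmd6 (-0.04) in lung and kidney.

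Psmd4, Psme2b and Psmc3ip were also among the calls, but their strains fell into separate sets of levels, so no r over all strains is given for them. The sets were seen in the data and set apart afterwards. Psmd4 encodes the ubiquitin receptor Rpn10 and lies near Psmb4 (chr3:94836616-94846536 and chr3:94688015-94690883). In kidney, 6 strains (CC017, CC023, CC032, CC040, CC044 and CC055) had TMM-normalized TPM of 0 to 0.348, and the other 41 had 1.65 to 8.33. The same 6 strains had at most 0.858 in liver and 0.656 in lung. Psmd4 has 2 transcript models and few counts, with a median CPM of 2.99 in liver, 1.46 in lung and 2.31 in kidney. At most 3 counts were seen in 8 liver, 7 lung and 5 kidney libraries, so many of the low values are at the floor. Of the others, CC036 was at 0 in liver and CC033 at 0.451 in lung. Within the 41 strains r was 0.19 in liver and kidney (permutation p = 0.236, adjusted over 18 such tests 0.667) and 0.14 in lung and kidney (permutation p = 0.371, adjusted 0.669). In the 6 strains the neighbour Psmb4 ranked, from the top of 47, at 44, 47, 22, 18, 46 and 42 in liver (in the order named), at 46, 45, 42, 28, 43 and 47 in lung, and at 26, 45, 42, 41, 47 and 34 in kidney. These ranks were read after the sets were seen, and were not tested.

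Psmc3ip, which is no part of the proteasome, had the largest gap in TPM between its sets. In kidney 10 strains (CC004, CC005, CC006, CC007, CC010, CC013, CC015, CC017, CC037 and CC038) had 36.8 to 48.0 TMM-normalized TPM, and the other 37 had 0 to 10.5. In lung the same strains had 17.3 to 38.2 and 2.88 to 15.8, with no overlap. In liver they had 7.13 to 14.1 and 0 to 8.33, where CC030 of the lower set overlapped. At most 3 counts were seen in 24 of the 47 liver libraries, so many liver values are at the floor, and the gene did not pass the expression filter for correlations with liver. Within the 37 strains r was 0.18 in lung and kidney (permutation p = 0.280, adjusted 0.667). In liver and kidney it was 0.40 (permutation p = 0.0127, adjusted 0.0759). Within the 10 strains r was -0.72 in liver and lung (permutation p = 0.0194, adjusted 0.0872), with a rho of -0.61 (permutation p = 0.0659, adjusted 0.297). With that limit on liver, liver was called below kidney for this gene, at -1.17 ± 0.18 (SE) with an adjusted p of 9.13e-09.

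Psme2b had TMM-normalized TPM of 0 to 0.752 in the lungs of 7 strains (CC023, CC024, CC031, CC039, CC044, CC061 and CC068), and 7.02 to 42.9 in the other 40. The 7 strains had at most 0.474 in liver and 1.14 in kidney. CC059 was highest in all 3 tissues, with 15.5, 42.9 and 21.4 in liver, lung and kidney. Within the 40 strains r was 0.47 in lung and kidney (permutation p = 0.00245, adjusted over the 18 tests 0.0304), rho was 0.41 (p = 0.00995, adjusted 0.0791), and r was 0.35 without the 2 farthest strains. In liver and kidney r was 0.45 (permutation p = 0.00338, adjusted 0.0304), and 0.24 without the 2 farthest strains, so that this relation rests on those strains. At most 3 counts were seen in 30 liver and 17 kidney libraries, so many of these values are at the floor. The gene did not pass the expression filter for correlations with liver. The 40 strains were set apart by their lung values, so these p-values belong to a set chosen from the same data.

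**Figure D3:**
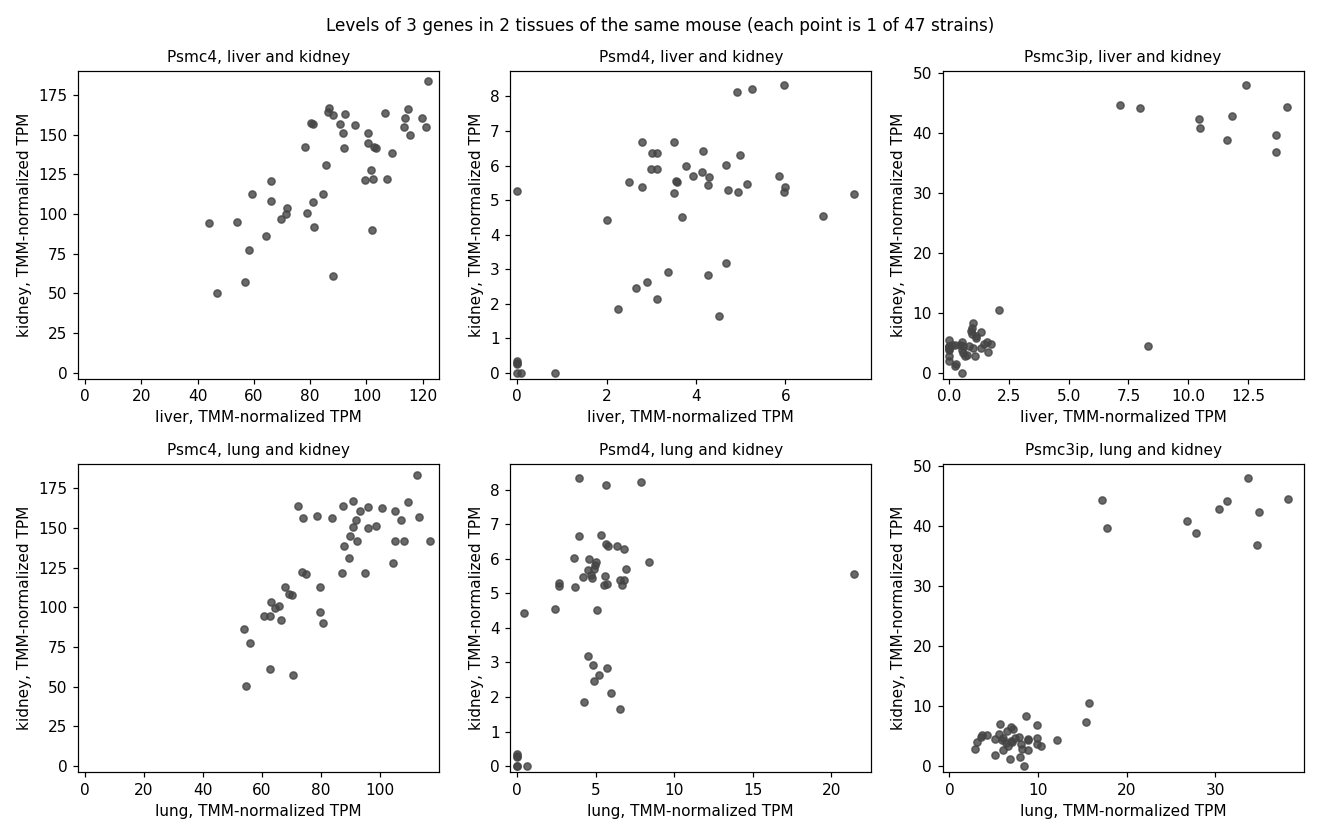
TMM-normalized TPM of Psmc4, Psmd4 and Psmc3ip in kidney (vertical axes) against liver (upper row) and lung (lower row), each point 1 of 47 strains. Psmc4 forms a continuous band, Psmd4 has 6 strains near 0 in kidney, and Psmc3ip has 10 strains at 36.8 or more in kidney.

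To ask which genes varied with the inducible catalytic subunits, each gene was correlated, within a tissue and over the 47 strains, with the mean of the rank inverse normal values of Psmb8, Psmb9 and Psmb10. In liver 1 of 43 proteasome genes was called, where 1.41% of 8999 genes were called, 1.31% with positive r. In lung 9 of 44 were called, all with positive r, where 16.9% of 12386 genes were called and 9.53% with positive r. In kidney none of 44 was called, with 6 at an unadjusted permutation p under 0.05, where 4.68% of 10769 genes were called, 3.12% with positive r. Of the other pathway genes 0 of 22, 3 of 22 and 1 of 24 were called in liver, lung and kidney. In that order the median r of the proteasome genes was 0.02, 0.13 and -0.03, and that of all genes 0.01, 0.01 and -0.01.

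Psme1 was the gene called in liver and had the highest r in lung and in kidney. Its TMM-normalized TPM had a lowest, median and highest value of 87.6, 133 and 292 in liver, 156, 207 and 359 in lung and 53.9, 89.5 and 335 in kidney. In liver r was 0.64 (p = 1e-05, adjusted p = 0.009999), rho was 0.58 (p = 3e-05, adjusted p = 0.0327), and r was 0.59 without the 2 farthest strains. In lung r was 0.68 (p = 1e-05, adjusted p = 0.00149), rho was 0.66 (p = 1e-05, adjusted p = 0.00203), and r was 0.61 without the 2 farthest strains. In kidney r was 0.37 (p = 0.0106, adjusted p = 0.156), rho was 0.34 (p = 0.0215, adjusted p = 0.245), and r was 0.28 without the 2 farthest strains, which missed the threshold. The difference between tissues in these r was not tested.

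The other 8 genes called in lung were the chaperones Psmg4 and Psmd9, the alpha subunit Psma7, the beta subunits Psmb6 and Psmb3, and the non-ATPase subunits Psmd3, Psmd8 and Psmd2. For Psmg4 r was 0.59 (p = 6e-05, adjusted p = 0.00368), rho was 0.60 (p = 2e-05, adjusted p = 0.00285), and r was 0.56 without the 2 farthest strains. For Psma7 r was 0.52 (p = 0.00015, adjusted p = 0.00626), rho was 0.52 (p = 0.00023, adjusted p = 0.00902), and r was 0.46 without the 2 farthest strains. For Psmb6 r was 0.50 (p = 0.00038, adjusted p = 0.0104), rho was 0.52 (p = 0.00027, adjusted p = 0.00986), and r was 0.47 without the 2 farthest strains. For Psmd9 r was 0.47 (p = 0.00082, adjusted p = 0.0160), rho was 0.41 (p = 0.00417, adjusted p = 0.0495), and r was 0.40 without the 2 farthest strains. For Psmd3 r was 0.44 (p = 0.00204, adjusted p = 0.0276), rho was 0.43 (p = 0.00301, adjusted p = 0.0412), and r was 0.40 without the 2 farthest strains. For Psmd8 r was 0.44 (p = 0.00177, adjusted p = 0.0253), rho was 0.46 (p = 0.00105, adjusted p = 0.0222), and r was 0.46 without the 2 farthest strains. For Psmb3 r was 0.43 (p = 0.00274, adjusted p = 0.0330), rho was 0.46 (p = 0.00113, adjusted p = 0.0232), and r was 0.39 without the 2 farthest strains. For Psmd2 r was 0.36 (p = 0.0126, adjusted p = 0.0835), rho was 0.32 (p = 0.0276, adjusted p = 0.150), and r was 0.34 without the 2 farthest strains. The Psmd2 call was lost without the strains of low depth (adjusted p = 0.124), given Rn45s (0.1004) and without CC016 and CC040 (0.108). Psmg4, Psma7 and Psmd2 have more than 1 transcript model and few counts, with lung median CPM of 0.669, 2.29 and 1.88. At most 3 counts were seen in 5 lung libraries for Psmg4, 0 for Psma7 and 1 for Psmd2. Of the genes whose promoter window held the interferon-type motif, Psme1, Psmg4, Psmd9 and Psmb3 were among the 9, and Psmd4 was not. None of Psmb8, Psmb9 and Psmb10 held it. The overlap of motif and call was not tested, and no share over all genes with the motif was taken.

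Leukocyte and interferon-response genes also varied with the inducible subunits. Of the leukocyte markers Cd74 was called in all 3 tissues, and Ptprc in lung, where r over the 4 markers ran from 0.16 to 0.57. In liver and in kidney only Cd74 of the 4 was expressed widely enough to be tested. Of the interferon-response list, Ifit1 and Isg15 were called in liver, Gbp2 in lung, and all 3 in kidney, with 3, 4 and 3 genes tested. The neutrophil marker S100a8 was called in liver and not in lung or kidney. Their part in the relation of Psme1 was not tested.

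Strain CC016 stood apart in all 3 tissues. Its Psmb8 reached 213, 299 and 386 TMM-normalized TPM in liver, lung and kidney, the highest of 47 strains in each, against medians of 40.8, 91.2 and 12.6. Psmb9, Psmb10, Irf1 and Gbp2 were highest in this strain in every tissue, while Irf7 was not highest in any. Psme1 was 292 in liver and 335 in kidney, both the highest, and 345 in lung, the second highest.

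In lung the highest Psme1 was that of CC040 (359), whose Isg15 (332), Ifit1 (213) and Irf7 were the highest of the 47 lungs. In its liver and kidney Psme1 ranked 39 and 38 from the top. Without both strains r of Psme1 with the inducible genes was 0.63 in liver (adjusted p = 0.0386) and 0.61 in lung (adjusted p = 0.00185), and its call between liver and kidney was lost (r = 0.27, adjusted p = 0.220).

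**Figure D4:**
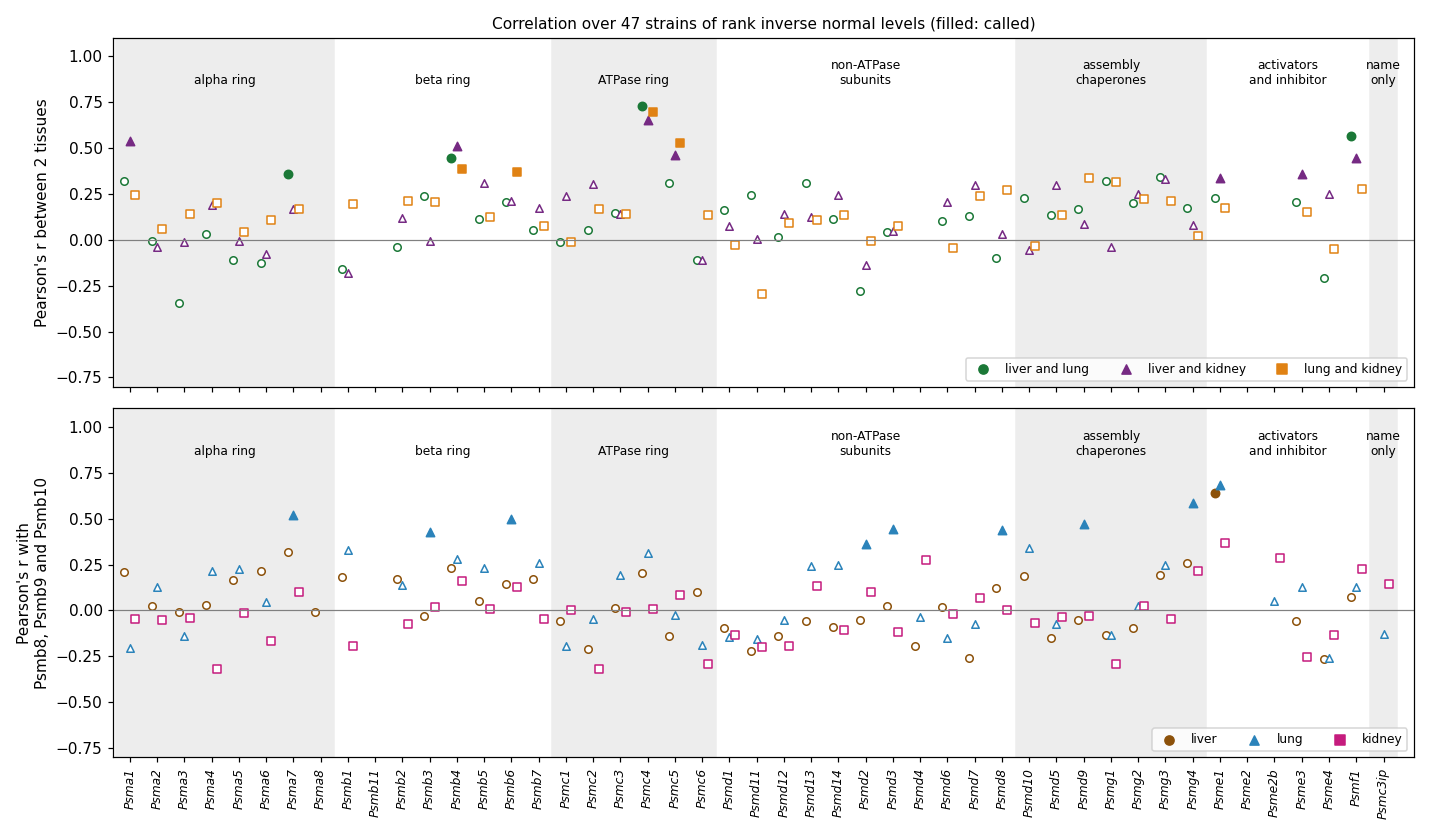
Pearson's r over 47 strains for each gene, between pairs of tissues (upper panel) and with the mean of Psmb8, Psmb9 and Psmb10 within a tissue (lower panel). Filled symbols were called, Psmd4, Psme2b and Psmc3ip are left out of the upper panel because their strains form separate sets, Psmc4 has the highest r of each tissue pair in the upper panel, and Psme1 that of each tissue in the lower panel.

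**Figure D5:**
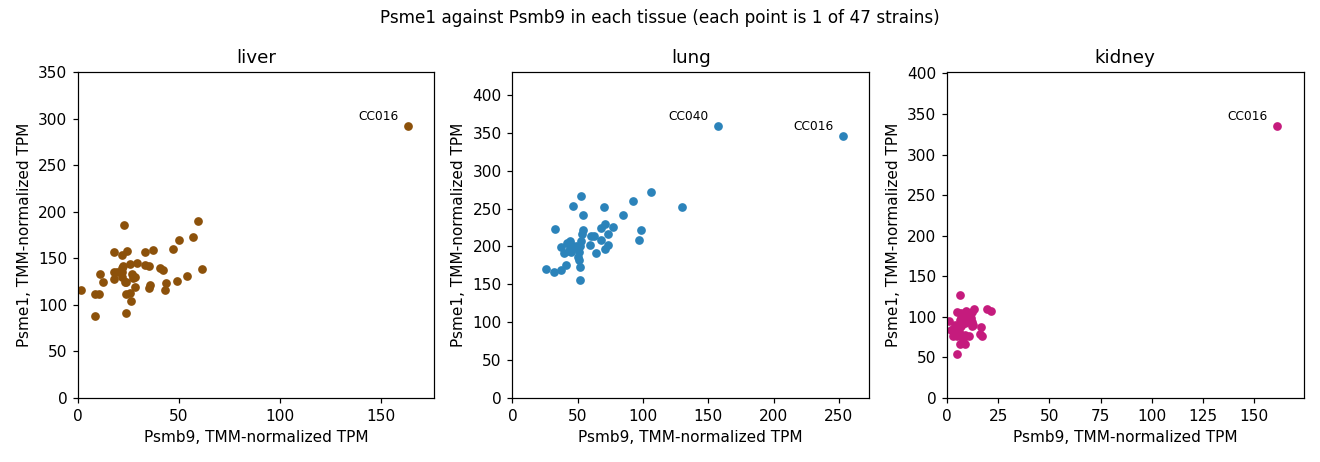
TMM-normalized TPM of Psme1 (vertical) against Psmb9 (horizontal) in liver, lung and kidney, each point 1 of 47 strains. CC016 lies at the upper right in each tissue, and CC040 joins it in lung only.

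At the median, the spread between strains was narrower than over all tested genes. Over the 45 tested genes the SD of log2 CPM over 47 strains had a median of 0.25 for liver, 0.25 for lung and 0.26 for kidney, against 0.52, 0.38 and 0.41 over all tested genes. For the 34 genes with a median of at least 10 TPM in each tissue it was 0.22, 0.23 and 0.22, against 0.30, 0.31 and 0.29 over all genes in the same range of mean level. That range held 5404, 8048 and 7267 of the 12127 tested genes, and levels were not matched gene by gene within it. The narrowest were Psma4 in liver (0.14), Psmd1, a scaffold subunit, in lung (0.12) and the ATPase Psmc3 in kidney (0.16). The widest of the 34 were Psmd9, Psmb4 and Psmc4, at 0.48, 0.42 and 0.43. Over pairs of the 34 genes the mean r over strains was 0.24 for liver, 0.20 for lung and 0.25 for kidney, against 0.01, 0.02 and 0.01 over pairs of genes of the same range of level. The points of each r share their libraries, and no test was made.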

How the data were processed

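RNA-seq of liver, lung and kidney was analysed from 1 mouse of each of 47 strains. As stated in the study's methods, STAR 2.5.3a placed the 50-base single-end reads on a pseudo-genome of each strain (Build37, RefSeq), reads that aligned once were kept, and the authors quantified them with RSEM. The expected counts deposited per gene were rounded (25 values were not whole). The deposited TPM was used for levels, and the deposited FPKM was not used. Samples were grouped by the tissue and strain in the labels.

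Tissues were compared with limma-voom (limma 3.58.1, edgeR 4.0.16 for TMM, R 4.3.3) on 12127 genes with CPM over 1 in at least 30% of libraries, with strain as a block. The pairing comes from the study's design of 1 mouse per strain: deviations of the same strain correlated at a median of 0.16 (liver and lung), 0.16 (liver and kidney) and 0.20 (lung and kidney), against -0.00, -0.01 and -0.01 for different strains. The study's batch covariate is not among the labels. Correlations over strains used permutations of strains for genes with a TMM-normalized TPM (TMM within a tissue) over 1 in more than 50% of libraries (numpy 2.4.6, scipy 1.17.1, numba 0.67.0). The fit was tested on simulated data. Depth is given as total counts per library; a library with at most 3 counts of a gene was taken as its floor, for counting error alone. P-values measure the spread between single mice.

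The genes, lists and tests were chosen with earlier results of these data known. Named by rule were the largest and smallest change per role group and tissue pair, members called against their group's median, the 3 highest and 3 lowest r per pair, members called with the inducible genes, and the highest and lowest member per ring. Alternatives covered thresholds, scaling, edgeR and DESeq2 1.42.0, filters, the block and left-out strains; leaving out CC016 and CC040 and conditioning on Rn45s were added after seeing the data. Positions are NCBIM37 with GENCODE vM1, and promoters RefSeq GRCm38.p6. Sem1, Ecm29 and Ufd1 of the pathway list were not found under these symbols.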

Additional observations from a re-analysis of the deposited data

How the results depend on the processing

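Without the replicate block, 41, 5 and 17 proteasome genes were called in liver against lung, liver against kidney and lung against kidney, against 40, 5 and 18 with the strain pairing; the counts of the other pathway genes were 11, 3 and 1 with or without it. The scaling was the choice that changed directions. With total counts 2, 6 and 7 proteasome genes were called in the 3 pairs (0, 1 and 2 of them higher in the tissue named first), with log2(TPM + 1) 2, 3 and 6 (0, 0 and 2), and with log2(TPM + 0.1) 2, 6 and 6 (0, 1 and 2); the balance turned in the first pair and in the second. Of all 12127 genes, total counts called 1186, 981 and 4046 as higher in the tissue named first, and 7474, 5795 and 1831 as lower. With log2(TPM + 1) these were 1004, 820 and 3718 higher, and 6969, 4200 and 1554 lower. With log2(TPM + 0.1) they were 1104, 959 and 4313 higher, and 7799, 5696 and 1714 lower. For the other pathway genes total counts gave 5, 2 and 1, log2(TPM + 1) 5, 2 and 2, and log2(TPM + 0.1) 6, 3 and 3, with the balance turned in each pair. In liver against lung the log2 fold change of Psma2 became -0.32, -0.44 and -0.44 with total counts and the pseudocounts of 1 and 0.1, of Psmc5 -0.24, -0.35 and -0.35, and of Psmd7 -0.33, -0.44 and -0.45. That of Psmb2 became -0.063 and -0.064 with the pseudocounts. Relative to the median gene these directions held.

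In liver against kidney, 3 proteasome genes were called with CPM over 1 in 50% of the libraries, where Psma8 and Psme2b were not tested, 3 without the 11 strains with a library under 4000000 counts, and 41 without a minimum fold. In lung against kidney, 10 were called with DESeq2 size factors, 10 with DESeq2 and 44 without a minimum fold. The cause of each difference was not tested, and no share over all genes was taken for the counts without a minimum fold. For the other pathway genes, 22, 21 and 21 were called without a minimum fold; in lung against kidney, DESeq2 size factors, DESeq2 and the 50% filter called 0, no low-count filter 5 of 28, and the pair fitted alone 2.

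For correlations in liver and lung, TPM without TMM called 1 of 42, beside 1.51% of all genes. There log2(TMM-normalized TPM + 1) called 8 (16.9% of all genes) and an adjusted p of 0.01 or less 2 (4.46%). That threshold called 3 in liver and kidney (8.46%) and 4 in lung and kidney (6.32%). In lung and kidney a median TPM over 5 also called 4, of 37 tested (18.0%). With the inducible genes, TPM without TMM called 39 in liver, 43 in lung and 37 in kidney, beside 74.1%, 84.7% and 56.1% of all genes. In lung, conditioning on Rn45s called 14 of 44, beside 22.2% of all genes, and an adjusted p of 0.01 or less 3, beside 3.53%. In kidney log2(TMM-normalized TPM + 1) called 1, beside 1.81%. At an unadjusted p under 0.05, 6 proteasome genes passed in kidney. Of 29 called r, 19 kept direction and call on TPM without TMM, 26 given Rn45s, 25 without CC016 and CC040, and 23 without the strains of low depth. The median summed level, in TMM-scaled CPM instead of TPM, was 1101 in lung and 2279 in kidney, another unit. The other 116 counts and sums under alternatives kept their direction and stayed within 1.5 times the count, or within 1 SD for sums.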
